A study of Mus musculus with 22 samples.

Results

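Allografts of mouse mammary cells, grown in the mammary gland, that carried conditional alleles of Brca1 on both chromosomes were compared with allografts that carried a single such allele, 3 against 3. The study is titled as one of primary cancer cell culture, and all 6 allografts are labelled with conditional reprogramming (CRC), a way of expanding cells before grafting in which epithelial cells are usually kept on irradiated fibroblast feeders. They were chosen by their titles from the 22 libraries of the study. The Brca1hom group, allografts 1, 2 and 12, was Brca1fl11/fl11/MMTV-Cre/Trp53-/+, and the Brca1het group, allografts 10B, 10C and 11C, was Brca1fl 11/WT/MMTV-Cre/Trp53-/+. Both groups therefore shared 1 mutant Trp53 allele and Cre recombinase under the MMTV promoter, which is active mainly in mammary epithelium and may not recombine every cell. The cells were of strain C57Bl/6, the samples are labelled nulliparous female, and the hosts were NU (NCr)-Foxn1nu mice, which lack most T cells but keep other immune cells, vessels and stroma. The age of the animals is not given in the sources used here. For side values, 1 Brca1hom and 1 Brca1het culture was available in CRC and in the epithelial medium called EpiC in the labels. The labels do not tell whether the 3 allografts of each genotype had separate donors, hosts or cultures, and 10B and 10C share a number, so each p-value reflects the spread among these libraries alone, part of which may be technical.

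Brca1 encodes a tumour suppressor that works with Bard1, Palb2 and Brca2 in homologous recombination, the repair of double-strand DNA breaks from an intact copy. Loss of it in mammary epithelium is known to give tumours with unstable chromosomes, and most such tumours also lose p53 function. The question set by the design was which genes differ between allografts with a pair of conditional Brca1 alleles and those with a single one.

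Expression was given as FPKM, fragments scaled to transcript length and library size, so the sequencing depth is unknown. FPKM sums were 479206 to 592308 and 11521 to 11782 genes reached 1 FPKM in each library. Across the 11928 tested genes, those with a mean of at least 1 FPKM, Brca1hom 2 and 12 correlated at 0.973 and Brca1het 10B and 10C at 0.965 (Pearson r of log2(FPKM + 1), across genes, which are not independent replicates). Brca1hom 1 stood apart, with 0.831 to 0.885 against the other 5. Epithelial markers were uneven: the keratin gene Krt8 stood at 218, 257 and 202 FPKM in Brca1hom and 227, 366 and 238 in Brca1het, in the order 1, 2 and 12 and then 10B, 10C and 11C, which is kept throughout. The adhesion gene Epcam stood at 25.6, 0.642 and 1.74 FPKM in Brca1hom and 1.55, 1.33 and 0.445 in Brca1het, and Krt5, a keratin of basal epithelium, at 0.0113, 0.126 and 1.63 FPKM in Brca1hom and 0.135, 4.02 and 0.0403 in Brca1het. Epcam was thus below 2 FPKM in every allograft but Brca1hom 1, against 266 and 264 in the CRC cultures of the same genotypes, whereas the mesenchymal filament gene Vim was at 1355 to 3192 FPKM in all 6. Of 25 luminal markers 13 were tested, and their median log2 difference of 0.37 turned to −0.25 without Brca1hom 1. Aldh1a3, a luminal progenitor gene, was the member without overlap, at 0.417, 0.207 and 0.540 FPKM in Brca1hom and 7.41, 11.5 and 1.36 in Brca1het.

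Brca1 itself stood at 5.26, 3.21 and 3.31 FPKM in Brca1hom and 3.44, 3.11 and 3.37 in Brca1het (log2 difference 0.17, SE 0.23, limma adjusted p = 0.795). The groups overlapped, and the highest value was in a Brca1hom library. A value over the whole gene cannot show whether the conditional part was lost, so it does not check the labels. Trp53, of which both groups carried 1 mutant allele, stood at 19.6, 7.02 and 13.5 FPKM in Brca1hom and 13.5, 15.9 and 15.1 in Brca1het (log2 difference −0.24, SE 0.35, limma adjusted p = 0.811). Without Brca1hom 1 the Brca1 difference was −0.0151, and without Brca1hom 2 the Trp53 difference was 0.13, each of the opposite sign.

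Among 25 genes of homologous recombination and Brca1 partners, none passed the test over all genes (limma, 0% of 11928 tested genes called). In 5 of the 25 the groups did not overlap with Brca1hom lower, against 9.93% of all tested genes, and in 0 of the 25 with Brca1hom higher, against 9.43%. Bard1, the obligate partner of Brca1 in its ubiquitin ligase, stood at 0.880, 1.43 and 1.54 FPKM in Brca1hom and 3.01, 2.99 and 2.28 in Brca1het (log2 difference −0.73, SE 0.23, limma adjusted p = 0.376). All 3 Brca1hom values lay below all 3 Brca1het values. Rad52, an annealing factor, Uimc1, which brings the Brca1-A complex to ubiquitin, and the helicase gene Brip1 were also without overlap, with log2 differences of −0.70, −0.44 and −0.40. Brca2 and Palb2, which act with Brca1 in this repair, overlapped. Brca2 stood at 3.23, 1.20 and 1.20 FPKM in Brca1hom and 1.42, 1.08 and 1.92 in Brca1het, and Palb2 at 0.503, 1.85 and 1.26 FPKM in Brca1hom and 2.29, 1.76 and 1.96 in Brca1het. The median log2 difference of the list was −0.03, beside −0.01 over all tested genes. Of 12 tested Fanconi anaemia genes, which repair crosslinks with this machinery, Fancg was higher and Fance lower without overlap, against 9.43% and 9.93%. Of 15 tested genes of end joining and PARP, Prkdc and Trp53bp1 were higher and Parp2 and Rif1 lower without overlap, against the same shares. These genes were named after their values were seen.

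No gene passed the test between the groups. With limma on log2(FPKM + 1), 0 of 11928 genes had an adjusted p under 0.05, and the smallest was 0.198, while 1246 genes (10.4%) had an unadjusted p under 0.05, 564 with Brca1hom higher (4.73%) and 682 with Brca1hom lower (5.72%). As a description, the groups did not overlap in 2309 genes (19.4%). Of these, 332 (2.78%) were at least 2-fold apart: 132 (1.11%) were at least 2-fold higher in Brca1hom and 200 (1.68%) at least 2-fold lower, as differences in mean log2(FPKM + 1), which understate the change of low genes. The counts moved with single libraries: without Brca1het 11C they were 315 higher and 358 lower, without Brca1hom 12 they were 224 and 356, without Brca1hom 2 they were 243 and 307, and without Brca1hom 1 they were 231 and 211. Leaving out Brca1hom 1 also gave 26 called genes, 17 higher and 9 lower, and leaving out Brca1het 11C gave 1.

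**Figure D1:**
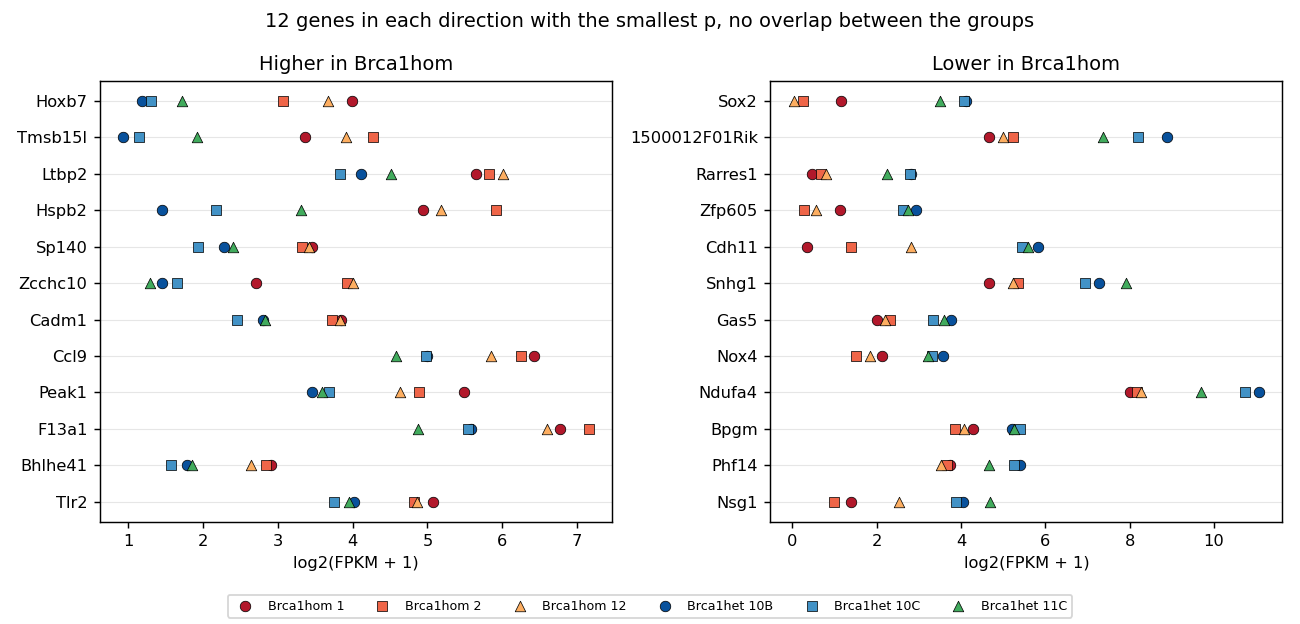
Values of log2(FPKM + 1) in each of the 6 allografts for 12 genes in each direction, those of smallest p among genes without overlap whose higher group averaged 5 FPKM or more. Each point is 1 library, red to yellow for Brca1hom and blue to green for Brca1het. Sox2, first in the right panel, is below 1.3 FPKM in every Brca1hom and above 10 in every Brca1het allograft.

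Genes higher in Brca1hom allografts included a run of homeobox genes and several genes of the matrix and of myeloid cells. Hoxb7, a transcription factor of body-axis patterning, stood at 14.9, 7.40 and 11.7 FPKM in Brca1hom and 1.27, 1.46 and 2.29 in Brca1het (log2 difference 2.18, SE 0.29, limma adjusted p = 0.198). Its neighbours in the Hoxb cluster on chromosome 11, named after their values were seen, lay the same way. Hoxb6 stood at 3.56, 1.56 and 1.70 FPKM in Brca1hom and 0.216, 0.431 and 0.384 in Brca1het, and Hoxb9 at 1.25, 6.40 and 16.2 FPKM in Brca1hom and 0.216, 0.296 and 0.288 in Brca1het. The table held 10 Hoxb genes, of which 7 were tested. Of these, 5 had no overlap with Brca1hom higher, against 9.43% of all tested genes, and the median log2 difference was 1.24. Hoxb6, Hoxb8 and Hoxb9 averaged 0.344, 0.573 and 0.267 FPKM in Brca1het, so they passed the filter only through their Brca1hom values. The count and the median rest in part on such members and are no test of the cluster. In the CRC cultures Hoxb7 was listed at 0 FPKM in Brca1hom and stood at 0.0768 in Brca1het.

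Ltbp2, a latent TGF-beta binding protein of the matrix, stood at 49.0, 55.6 and 63.5 FPKM in Brca1hom and 16.4, 13.2 and 21.8 in Brca1het (log2 difference 1.67, SE 0.24, limma adjusted p = 0.198). Every Brca1hom value was over 2 times the highest Brca1het value. Hspb2, a small heat shock protein gene, stood at 29.7, 59.2 and 35.2 FPKM in Brca1hom and 1.74, 3.50 and 8.89 in Brca1het (log2 difference 3.03). Tmsb15l, an actin-binding thymosin gene, stood at 9.26, 18.3 and 14.1 FPKM in Brca1hom and 0.910, 1.20 and 2.79 in Brca1het (log2 difference 2.52). Fn1, the gene of fibronectin, stood at 968, 796 and 759 FPKM in Brca1hom and 368, 402 and 437 in Brca1het (log2 difference 1.06, SE 0.22, limma adjusted p = 0.291), with no overlap. The rest of the 12 were Sp140, a chromatin reader of leukocytes, the adhesion gene Cadm1, the chemokine gene Ccl9, the kinase-like scaffold gene Peak1, the transglutaminase gene F13a1, the clock repressor gene Bhlhe41, the bacterial sensor gene Tlr2 and Zcchc10, with log2 differences of 1.01 to 2.08.

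Among genes lower in Brca1hom allografts, Sox2, a transcription factor of stem cells, had the smallest p, at 1.21, 0.195 and 0.0225 FPKM in Brca1hom and 16.4, 15.8 and 10.3 in Brca1het (log2 difference −3.42, SE 0.34, limma adjusted p = 0.198). Without Brca1hom 1 its adjusted p was 0.00517. Cdh11, a cadherin of mesenchymal cells, stood at 0.265, 1.60 and 6.00 FPKM in Brca1hom and 55.8, 42.8 and 47.3 in Brca1het (log2 difference −4.12, SE 0.57, limma adjusted p = 0.198), and its adjusted p was 0.0401 without Brca1hom 1. The Brca1hom values spread widely, but the highest of them was 6.00 FPKM and the lowest Brca1het value 42.8. Both genes were near 0 in the CRC cultures: Sox2 was listed at 0 in Brca1hom and at 0.0184 FPKM in Brca1het, and Cdh11 stood at 0.103 FPKM in the Brca1hom and 0.542 in the Brca1het CRC culture.

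Rarres1, a retinoid-responsive gene, stood at 0.371, 0.595 and 0.745 FPKM in Brca1hom and 6.08, 5.95 and 3.75 in Brca1het (log2 difference −1.98). Zfp605, a zinc finger gene, stood at 1.18, 0.203 and 0.464 FPKM in Brca1hom and 6.57, 5.20 and 5.67 in Brca1het (log2 difference −2.12). Nox4, an oxidase that makes hydrogen peroxide, stood at 3.34, 1.84 and 2.58 FPKM in Brca1hom and 10.9, 8.87 and 8.25 in Brca1het. Bpgm, which makes 2,3-bisphosphoglycerate, and the endosomal gene Nsg1 also had no overlap, with log2 differences of −1.22 and −2.57. Tcfl5, a helix-loop-helix factor outside the 12, was listed at 0 in all 3 Brca1hom libraries. It stood at 11.3, 14.2 and 0.0287 FPKM in Brca1het (log2 difference −2.53, SE 0.95, limma adjusted p = 0.440). Tcfl5 was the gene called without Brca1het 11C (limma adjusted p = 0.0332). That setting left out the only Brca1het library near 0 and kept those that share a number. Tcfl5 passed the filter only through the kept libraries, so the call is no evidence of a genotype effect. The 12 genes also held Ndufa4 and Phf14, which lie on the chromosome 6 stretch described further on, and 3 host genes of small nucleolar RNAs, described next.

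Small nucleolar RNAs guide the chemical modification of ribosomal RNA, and most are cut from the introns of host genes whose spliced transcripts often encode no protein. Many hosts, like the genes of ribosomal proteins, begin with a run of pyrimidines, the terminal oligopyrimidine tract, through which their translation follows growth signals. The start sites of 5 hosts are shown, picked after their values were seen from those without overlap. They are Zfas1 (in the table as 1500012F01Rik), Snhg1, Gas5, Snhg7 and Snhg12. Each sequence is the 30 bases before and the 30 bases from the annotated start on the gene's strand, from RefSeq, build GRCm38.p6, and capitals mark the unbroken run of C and T from the start base, where there is one. The windows are chr2:167062904-167062963, plus strand; chr19:8723457-8723516, plus strand; chr1:161035136-161035195, plus strand; chr2:26640215-26640274, minus strand; and chr4:132308648-132308707, plus strand.
Zfas1: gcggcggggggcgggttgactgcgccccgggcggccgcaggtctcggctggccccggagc
Snhg1: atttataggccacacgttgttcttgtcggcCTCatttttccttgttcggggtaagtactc
Gas5: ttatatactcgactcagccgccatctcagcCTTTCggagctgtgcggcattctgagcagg
Snhg7: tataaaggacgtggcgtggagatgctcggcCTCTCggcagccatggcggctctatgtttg
Snhg12: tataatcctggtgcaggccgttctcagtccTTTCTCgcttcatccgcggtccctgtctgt
Gas5 (at the second of its 2 listed starts) and Snhg7 begin with C and 4 further pyrimidines, Snhg12 has a run of 6 that begins with T, Snhg1 a run of 3, and Zfas1 none at the listed base. A C followed by at least 4 bases that are each C or T was found at 2.51% of 32851 RefSeq starts, in 13 of 57 ribosomal protein genes with an entry and in 3 of 12 host genes with an entry, Snhg8 being the third. Of hosts without overlap that are not shown, Dancr and Snhg3 had no run at the listed start. Snhg18 had a run of 6 that begins with T. Only the gene's strand was read, and a listed start may differ from the one used in these cells.

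The hosts lay lower in Brca1hom allografts. Zfas1 (1500012F01Rik) stood at 24.3, 36.4 and 31.1 FPKM in Brca1hom and 469, 294 and 165 in Brca1het (log2 difference −3.19, SE 0.39, limma adjusted p = 0.198). Snhg1 stood at 24.2, 40.1 and 36.9 FPKM in Brca1hom and 154, 122 and 240.3 in Brca1het (log2 difference −2.29, SE 0.32, limma adjusted p = 0.198), and Gas5, whose transcript accumulates in arrested cells, at 3.02, 3.96 and 3.62 FPKM in Brca1hom and 12.6, 9.06 and 11.1 in Brca1het (log2 difference −1.39, SE 0.21, limma adjusted p = 0.225). In each of them all Brca1hom libraries lay below all Brca1het libraries. Snhg1 lies on chromosome 19, whose median was lower in Brca1hom, and the part of that in its values was not tested. Zfas1 lies on chromosome 2, where a distal run of neighbouring genes, Slc9a8 to Cebpb, was high in Brca1het 10B and 10C. These libraries also held the highest Zfas1 values. Zfas1 is not among the genes of that run, and the part of its position was not tested. Snhg7 stood at 1.68, 3.76 and 4.96 FPKM in Brca1hom and 12.6, 13.7 and 18.7 in Brca1het. Snhg12 stood at 16.4, 25.1 and 15.5 FPKM in Brca1hom and 42.8, 41.6 and 66.7 in Brca1het. Of 15 hosts listed (all Snhg genes of the table, Gas5, Zfas1 and Dancr, a group named after their values were seen), 14 were tested. All 14 had a log2 difference below 0 (median −1.37), and 10 had no overlap and at least a 2-fold difference, against 1.68% of all tested genes. The 4 that overlapped were Snhg5, Snhg8, Snhg9 and Snhg10. In the CRC cultures Snhg1 stood at 106 FPKM in the Brca1hom and 65.2 in the Brca1het CRC culture, the other way round. Over the 14 hosts the median log2 difference between these 2 libraries was 0.37.

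**Figure D2:**
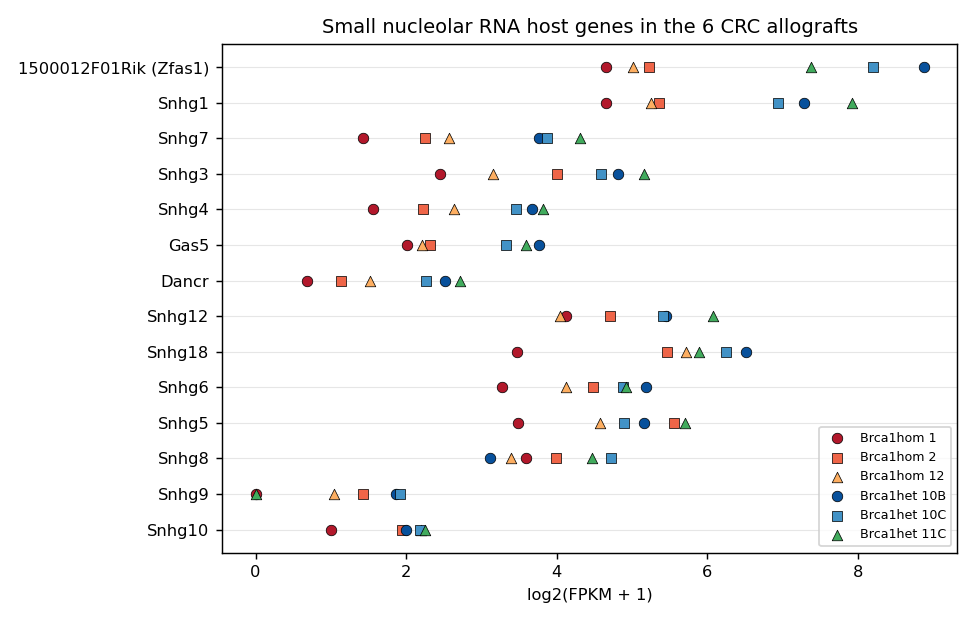
Values of log2(FPKM + 1) of the 14 tested host genes of small nucleolar RNAs in each of the 6 allografts, ordered by the difference between the groups. Each point is 1 library. In the upper 10 genes every Brca1hom point lies left of every Brca1het point, and in the lower 4 the groups overlap.

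Ribosomal protein genes leaned the same way by less. Of 78 tested, 71 had a log2 difference below 0, 18 had no overlap with Brca1hom lower, against 9.93% of all tested genes, and 0 with Brca1hom higher, against 9.43%, and the median was −0.44, beside 0.01 between the CRC cultures. Their mean log2(FPKM + 1) was 8.72, 9.44 and 9.33 in Brca1hom and 9.36, 9.83 and 9.57 in Brca1het, with the lowest level in Brca1hom 1 and an overlap between the groups.

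Transcript length moved with these differences. The tested genes were split into 5 equal bins by the longest transcript annotated for their symbol (GENCODE, 95.1% matched). In the shortest bin, up to 1773 bases, 13.4% of genes had no overlap with Brca1hom lower and 3.75% with Brca1hom higher. In the longest bin, from 5076 bases, the shares were 5.16% and 18.4%. The median log2 difference went from −0.18 to 0.19. Brca1hom 1 deviated most, with a median of −0.33 in the shortest and 0.24 in the longest bin against the median of the 6 libraries, while Brca1hom 2, Brca1hom 12 and Brca1het 11C stayed within 0.033 of 0. The part of length in any single difference was not tested. As a setting chosen after seeing the data, each library was centred on the median of genes of like length. The 11 tested hosts with a length then had a median of −1.13 and 7 of them had no overlap with Brca1hom lower, and the ribosomal protein genes had a median of −0.26, with 15 lower and 2 higher.

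**Figure D3:**
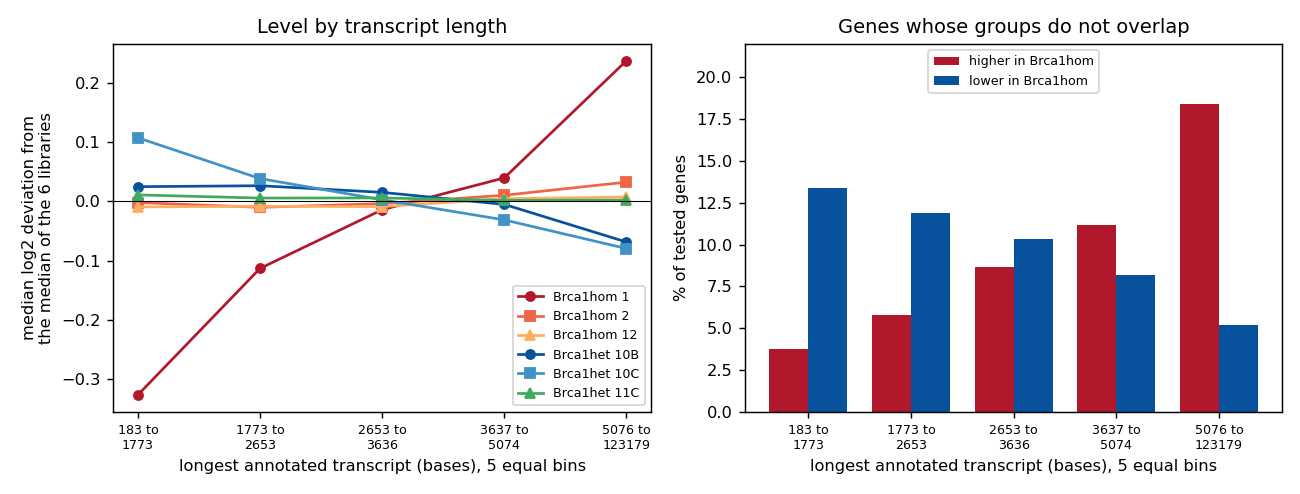
Left, median log2 deviation of each library from the median of the 6 libraries, in 5 equal bins of tested genes by longest annotated transcript; each line is 1 library, and Brca1hom 1 runs from −0.33 to 0.24. Right, percent of the genes of each bin whose groups do not overlap, as bars for Brca1hom higher and Brca1hom lower; the share higher climbs from 3.75% to 18.4% with length.

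Macrophage genes lay higher in Brca1hom allografts. Macrophages are host cells that take up debris and pathogens, and nude hosts keep them. Of 17 tested markers, 0 passed the test over all genes (limma), 10 had no overlap with Brca1hom higher, against 9.43% of all tested genes, 0 had none with Brca1hom lower, and 16 had a log2 difference above 0 (median 0.90). Csf1r, the receptor that macrophages need to survive, stood at 410.01, 157 and 202 FPKM in Brca1hom and 80.9, 99.7 and 104 in Brca1het (log2 difference 1.31, SE 0.37, limma adjusted p = 0.345). The complement gene C1qa stood at 1624, 1378 and 1248 FPKM in Brca1hom and 481, 969 and 679 in Brca1het (log2 difference 1.05, SE 0.31, limma adjusted p = 0.356), and Itgam, an integrin of myeloid cells, at 61.0, 43.8 and 41.7 FPKM in Brca1hom and 14.5, 12.8 and 24.3 in Brca1het. In all 3 genes the lowest Brca1hom value exceeded the highest Brca1het value. Cd14, Mrc1, Ctss, Cd68, C1qb, C1qc and Emr1 (F4/80) were the other members without overlap. The remaining members, Lyz2, Tyrobp, Fcer1g, Aif1, Laptm5, Mpeg1 and Cd163, overlapped. Tyrobp stood at 263, 499.8 and 632 FPKM in Brca1hom and 417, 439 and 369 in Brca1het.

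The mean log2(FPKM + 1) of the macrophage list was 7.90, 7.59 and 7.76 in Brca1hom and 6.81, 7.01 and 6.79 in Brca1het, without overlap. Most of these genes were near 0 in the cultures, such as Csf1r at 0.168 FPKM in the Brca1hom and 0.0910 in the Brca1het CRC culture, while Cd14 was not, at 55.6 FPKM in the Brca1hom and 33.6 in the Brca1het CRC culture. In such bulk samples more cells of a type and more RNA per cell cannot be told apart. The macrophage markers were short, with a median of 1336 bases against 3105 over all tested genes, and after centring on length their median difference was 0.99. Without Brca1hom 1, 13 of 17 had no overlap with Brca1hom higher, against 16.4% of all tested genes, and the median was 0.79. Csf1, the growth factor that Csf1r binds, stood at 63.5, 93.7 and 124 FPKM in Brca1hom and 43.6, 41.3 and 48.5 in Brca1het, again without overlap.

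Genes of antigen presentation shared the direction. Of 16 tested members, 7 had no overlap with Brca1hom higher, against 9.43% of all tested genes, and 0 with Brca1hom lower, against 9.93% (median 0.83), and the list mean was 5.74, 5.92 and 6.18 in Brca1hom and 4.94, 5.37 and 5.07 in Brca1het. Cd74, the invariant chain of class II molecules, stood at 716, 589.8 and 1108 FPKM in Brca1hom and 215, 413 and 201 in Brca1het (log2 difference 1.57, SE 0.37, limma adjusted p = 0.301). The class II gene H2-Eb1 stood at 59.2, 82.1 and 185 FPKM in Brca1hom and 28.9, 44.1 and 26.4 in Brca1het, and Psmb9, a subunit of the immunoproteasome that cuts peptides for class I, at 25.1, 24.6 and 28.6 FPKM in Brca1hom and 14.2, 15.1 and 14.3 in Brca1het. H2-Aa, H2-K1, Psmb8 and the peptide transporter gene Tap1 completed the 7. Class II genes are expressed by macrophages and dendritic cells, so these lists are not independent of each other. Some members were also expressed in culture. Psmb8 stood at 22.5 FPKM in the Brca1hom and 16.8 in the Brca1het CRC culture, whereas Cd74 stood at 2.21 and 1.12. The list median was 0.35 between the CRC cultures and 0.13 between the EpiC cultures. The part of the grafted cells in the allograft values was not tested. Without Brca1hom 1 the count was 12 of 16, against 16.4% of all tested genes.

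Of 28 tested interferon response genes, 6 had no overlap with Brca1hom higher, against 9.43% of all tested genes, and 0 with Brca1hom lower, against 9.93%, and 24 had a log2 difference above 0 (median 0.23, 0.01 to 0.45 with 1 library left out). Igtp, a GTPase gene of the response, stood at 9.58, 28.0 and 13.1 FPKM in Brca1hom and 5.87, 3.69 and 6.73 in Brca1het, and Irgm1, another of these GTPases, at 19.8, 30.7 and 25.5 FPKM in Brca1hom and 13.7, 9.62 and 16.5 in Brca1het. The list mean was highest in Brca1hom 2 and lowest in Brca1het 10C, and the groups overlapped. In the single CRC cultures the median log2 difference of the list was 0.96 in the same direction, and between the EpiC cultures −0.71.

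Markers of other host cells behaved differently from one list to the next. All 14 tested endothelial markers had a log2 difference below 0 (median −0.79), 3 of them without overlap, against 9.93% of all tested genes. Pecam1, an adhesion molecule of the vessel lining, stood at 15.7, 12.1 and 28.5 FPKM in Brca1hom and 29.1, 38.4 and 40.6 in Brca1het. Emcn, a sialomucin of small vessels, stood at 10.6, 16.0 and 30.3 FPKM in Brca1hom and 41.4, 46.6 and 37.6 in Brca1het. Esam, a junction gene of the same cells, had a log2 difference of −1.09. The list mean overlapped, at 2.95, 2.85 and 3.53 in Brca1hom and 3.44, 4.06 and 4.13 in Brca1het, with Brca1hom 12 above Brca1het 10B. Of 9 tested neutrophil and mast cell markers 1 had a difference above 0 and 0 were without overlap, while the list mean was 1.88, 3.23 and 3.28 in Brca1hom and 3.49, 3.87 and 3.51 in Brca1het, apart and lowest in Brca1hom 1. All 6 tested lymphocyte and NK markers were above 0, with the highest level in Brca1hom 1 and overlap throughout. The 8 tested adipocyte markers were all below 0, Fabp4 and Pparg without overlap, but the list median of −0.45 turned to 0.41 without Brca1hom 1.

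**Figure D4:**
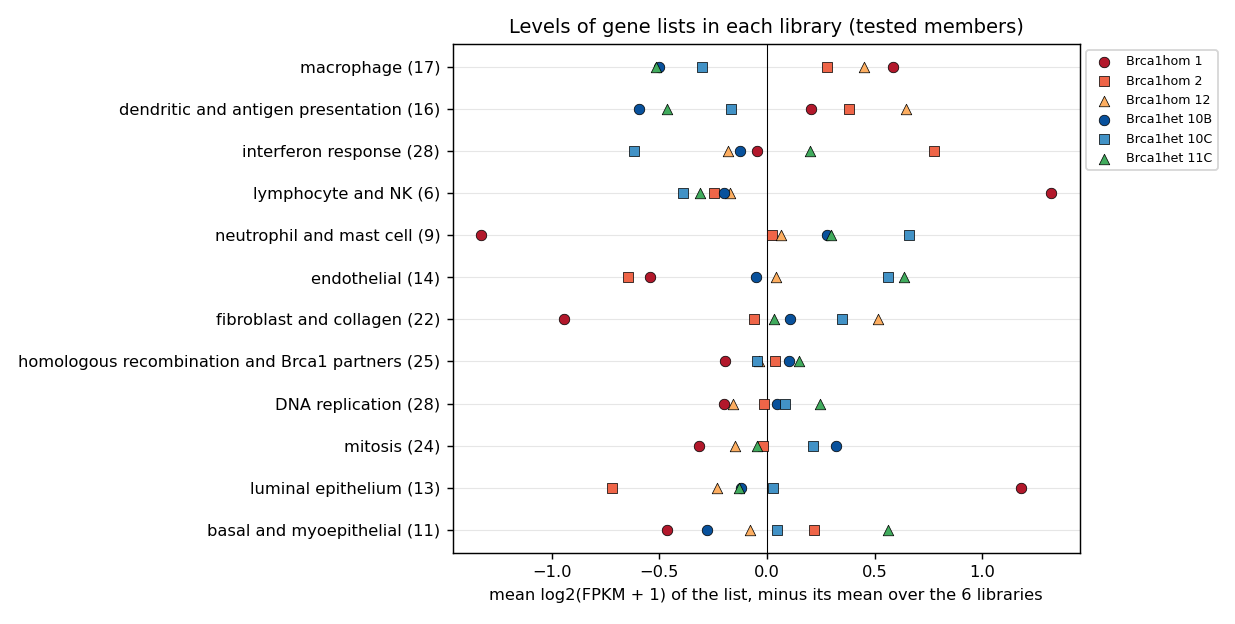
Mean log2(FPKM + 1) of 12 gene lists in each allograft, minus the mean of the list over the 6 libraries; the number of tested genes stands in brackets and each point is 1 library. In the upper pair of lists, macrophage and antigen presentation, all 3 Brca1hom points lie right of all 3 Brca1het points, and in the lists of neutrophils and mast cells and of DNA replication all 3 lie left; in the other 8 lists the groups overlap.

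Genes of cell division leaned towards lower values in Brca1hom. Of 28 tested DNA replication genes, 9 had no overlap with Brca1hom lower, against 9.93% of all tested genes, and 0 with Brca1hom higher (median −0.28). Pcna, the sliding clamp, stood at 40.4, 67.4 and 59.7 FPKM in Brca1hom and 93.5, 72.5 and 69.3 in Brca1het, and Mcm10, which helps to start replication, at 3.81, 5.10 and 5.29 FPKM in Brca1hom and 9.97, 9.92 and 5.56 in Brca1het. Of 24 mitotic genes 20 had a difference below 0 and 4 had no overlap, all lower, against the same 9.93% (median −0.28). Kif11, the motor that parts the spindle poles, stood at 8.41, 8.73 and 9.08 FPKM in Brca1hom and 19.8, 15.7 and 14.0 in Brca1het, and Cenpa, the histone of centromeres, at 23.1, 47.0 and 39.6 FPKM in Brca1hom and 93.9, 81.3 and 50.3 in Brca1het. Kif11 lies on chromosome 19, whose median was lower in Brca1hom, and the part of that in its values was not tested. The medians of both lists kept their sign under each setting tried, at −0.35 to −0.21 and −0.40 to −0.22, and between the single CRC cultures they were −0.49 and −0.63.

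Regulators of the entry into S phase split. Of 21 tested, 5 had no overlap with Brca1hom lower, against 9.93% of all tested genes. A further 2 had none with Brca1hom higher, against 9.43%. Cdkn1a, the p53 target that encodes the inhibitor p21, stood at 30.7, 49.98 and 26.5 FPKM in Brca1hom and 16.4, 18.5 and 17.5 in Brca1het, with no overlap and Brca1hom higher. The kinase gene Cdk4 stood at 195, 229.7 and 227 FPKM in Brca1hom and 323, 359.9 and 322 in Brca1het, and Cdk2, Ccne1, Cdkn1b and Cdkn2c lay the same way, all with Brca1hom lower. Cdk6 stood at 6.27, 69.4 and 6.52 FPKM in Brca1hom and 2.96, 3.70 and 4.52 in Brca1het, where Brca1hom 2 alone was more than 10 times every other library. Of 24 tested p53 targets, Cdkn1a and Sesn2 were higher without overlap, against 9.43% of all tested genes. Bax, which promotes apoptosis, was lower without overlap, against 9.93%.

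In signalling and matrix, single members differed more than lists. Notch2, a receptor, and Rbpj, the DNA-binding partner of Notch, lay higher in Brca1hom. Notch2 stood at 35.8, 29.6 and 19.9 FPKM in Brca1hom and 14.3, 15.5 and 12.98 in Brca1het, and Rbpj at 42.6, 35.0 and 32.4 FPKM in Brca1hom and 20.6, 16.9 and 19.4 in Brca1het. The Notch target genes Hey1 and Nrarp lay the other way. Hey1 stood at 0.855, 0.549 and 1.17 FPKM in Brca1hom and 2.59, 3.47 and 2.60 in Brca1het, and Nrarp had a log2 difference of −0.87. In none of the 4 did the groups overlap. Of the 12 tested Notch genes, 2 had no overlap with Brca1hom higher, against 9.43% of all tested genes. A further 3 had none with Brca1hom lower, against 9.93%, and the others overlapped. Stat5a, a transcription factor of prolactin signalling, stood at 5.40, 4.16 and 6.25 FPKM in Brca1hom and 1.96, 2.02 and 2.95 in Brca1het, and Tgfbr2, a receptor of TGF-beta, at 114, 86.1 and 127 FPKM in Brca1hom and 59.0, 64.2 and 79.4 in Brca1het. In both of these genes all Brca1hom values were above all Brca1het values. Pdgfra, a growth factor receptor of mesenchymal cells, stood at 63.4, 21.3 and 33.4 FPKM in Brca1hom and 108, 77.8 and 122 in Brca1het, and Cxcl12, a chemokine of stromal cells, at 45.0, 12.6 and 10.1 FPKM in Brca1hom and 136, 122 and 588 in Brca1het, both lower in Brca1hom without overlap. Acta2, a contractile actin, stood at 6.35, 135 and 87.3 FPKM in Brca1hom and 381, 455 and 157 in Brca1het. Of 22 tested fibroblast and collagen genes, Pdgfra and Col5a2 were lower without overlap, against 9.93% of all tested genes, and Fbln2 higher, against 9.43%. The list median of −0.24 turned to 0.08 without Brca1hom 1. Of 23 tested genes of glycolysis and hypoxia, the enzyme genes Pkm, Pfkp and Pfkl had no overlap with Brca1hom higher, against 9.43% of all tested genes. Pkm stood at 1248, 1479 and 1126 FPKM in Brca1hom and 684, 779.5 and 906 in Brca1het. In 19 of the 23 genes of that list the difference was above 0. The list median of 0.22 ranged from −0.04 to 0.53 with 1 library left out.

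Runs of neighbouring genes were high together in some allografts, across the genotypes. Gene order was taken from RefSeq (GRCm38.p6), and runs were read as windows of 5 tested neighbours whose median lay at least 2 log2 units from the median of the 10 allografts of the study, a rule set after seeing the data. The ends of the chromosome 6 and 9 stretches given below were then set by hand from these values and differ from those of the windows. On chromosome 6 the windows ran over 12 genes, Mdfic to Ing3, in Brca1het 10B and 10C. In 10B they also ran over 8 genes, Klra23 to Casd1. On chromosome 9 they ran from Alkbh8 to Gria4 and from Casp4 to Ccdc82 in Brca1het 11C, and from Mmp8 to Jrkl in Brca1hom 1. DNA copy number was not analysed here, and its part was not tested. On chromosome 6, Tes, Cav2, Cav1 and Met lay side by side and were high in 4 of the 6 allografts. Met, the receptor of hepatocyte growth factor and a known oncogene of mouse mammary tumours, stood at 139, 765 and 637 FPKM in Brca1hom and 443, 309.6 and 45.4 in Brca1het (log2 difference 1.14, SE 0.97, limma adjusted p = 0.679). Cav1, a coat protein of membrane pits, stood at 144, 2736 and 2797 FPKM in Brca1hom and 2333, 1872 and 509 in Brca1het, and Tes, a focal adhesion gene, at 179, 3154 and 2397 FPKM in Brca1hom and 2033, 1540.3 and 115 in Brca1het. Brca1hom 2, Brca1hom 12, Brca1het 10B and Brca1het 10C were thus high and Brca1hom 1 and Brca1het 11C low, so the groups overlapped.

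The edges of the chromosome 6 stretch differed among libraries. In Brca1hom 2 it was limited to the 4 genes from Tes to Met, with a median of 3.40 log2 units above the median of the 10 allografts, and Capza2 next to them lay below that median. In Brca1hom 12 it went on through Capza2, St7 and Wnt2, and Foxp2 and Mdfic before Tes were high as well. In Brca1het 10B and 10C a wider stretch from Gng11 to Wasl was raised, where 37 and 34 of 47 tested genes were at least 2-fold above the median of the 10 allografts, against 1 to 10 in the other 4 libraries. Outside the comparison Met was also high in the Brca1het EpiC allograft 5A, at 687 FPKM, and lay at 24.3 to 88.6 in the other 3 allografts. In 5A Capza2 and St7 were high as well, but not Cav1, at 61.2 FPKM.

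This wide stretch supplied many of the genes lower in Brca1hom. It held 20 of the 200 genes at least 2-fold lower without overlap, or 10% of them, but 0.394% of the tested genes. Its ends were set by hand where the Brca1het libraries 10B and 10C were high. An excess of genes lower in Brca1hom follows in part from that choice, so these shares only describe it. They included Rpa3, a subunit of the single-strand DNA binding complex of replication and repair, at 12.3, 31.9 and 24.8 FPKM in Brca1hom and 281, 170.4 and 42.0 in Brca1het, and Shfm1, the small partner of Brca2, at 204, 385 and 309.7 FPKM in Brca1hom and 1461, 1656 and 588 in Brca1het. Ndufa4, of the respiratory chain, stood at 257, 289 and 305 FPKM in Brca1hom and 2155, 1707 and 826 in Brca1het, and Lsm8, of the spliceosome, at 68.6, 48.5 and 26.9 FPKM in Brca1hom and 370.4, 327 and 81.4 in Brca1het. In each of these genes 10B and 10C were far above the rest, with 11C between them and the Brca1hom libraries. Phf14, Asns, Ndufa5 and Wasl were among the others. When 10B and 10C were averaged into 1 sample the counts were 125 higher and 218 lower.

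On chromosome 9 a stretch around Yap1 was high in Brca1het 11C and, over fewer genes, in Brca1hom 1. Yap1, the transcriptional effector of the Hippo pathway, stood at 261, 28.1 and 50.3 FPKM in Brca1hom and 24.0, 23.6 and 1075 in Brca1het. Birc2, an inhibitor of apoptosis, stood at 90.5, 4.24 and 9.38 FPKM in Brca1hom and 7.29, 5.41 and 203 in Brca1het. Its relative Birc3 stood at 81.4, 11.4 and 16.4 FPKM in Brca1hom and 8.21, 7.25 and 226 in Brca1het. The same pair of libraries was high in all 3 genes, 1 of each genotype, and these were the libraries without the high Met values. In the 4 allografts outside the comparison Yap1 lay at 20.96 to 52.5 FPKM. From Alkbh8 to Arhgap42, 21 of 23 tested genes were at least 2-fold above the median of the 10 allografts in 11C and 8 in Brca1hom 1. Of 18 tested target genes of YAP, Ptpn14 alone had no overlap between the genotypes, with Brca1hom higher, against 9.43% of all tested genes. Their mean log2(FPKM + 1) was 4.20, 3.75 and 3.50 in Brca1hom and 3.31, 3.45 and 4.01 in Brca1het. It was thus highest in Brca1hom 1 and Brca1het 11C, the libraries with high Yap1. A split by genotype cannot show whether these targets follow Yap1, and that was not tested.

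**Figure D5:**
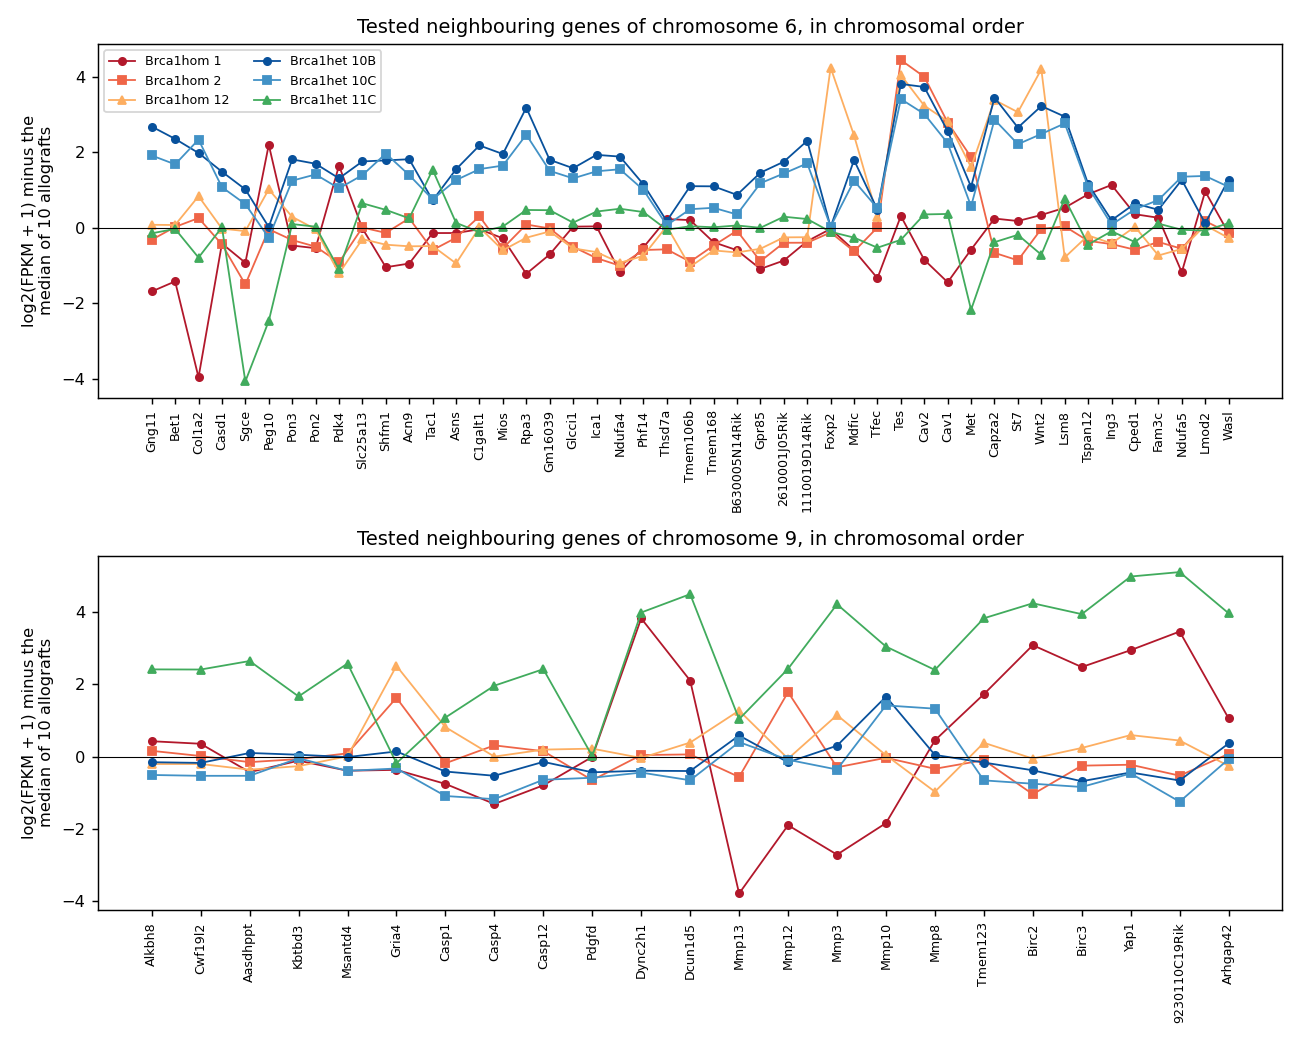
Deviation of log2(FPKM + 1) from the median of the 10 allografts, for tested neighbouring genes of chromosome 6 (Gng11 to Wasl, 47 genes) and chromosome 9 (Alkbh8 to Arhgap42, 23 genes) in chromosomal order; each line is 1 of the 6 allografts. Around Met the lines of Brca1hom 2 and 12 and Brca1het 10B and 10C stand above 0, and around Yap1 those of Brca1hom 1 and Brca1het 11C.

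Whole chromosomes differed less. Chromosome 19 had the lowest median log2 difference, −0.40 over 425 tested genes, and 173 of them had no overlap with Brca1hom lower (40.7%, against 9.93% of all tested genes). The medians of the libraries around the median of the 6 were −0.11, −0.35 and −0.12 in Brca1hom and 0.09, 0.23 and 0.18 in Brca1het, so all 3 Brca1hom libraries were below all 3 Brca1het libraries. Snhg1, Kif11, Acta2, Malat1 and Neat1 are among the genes that lie there. Malat1, a long nuclear RNA, stood at 18.7, 23.1 and 26.1 FPKM in Brca1hom and 32.9, 36.3 and 56.9 in Brca1het. Neat1, the scaffold of paraspeckles, stood at 24.5, 10.8 and 12.2 FPKM in Brca1hom and 37.7, 36.5 and 44.2 in Brca1het. Between the CRC cultures the median of the chromosome was 0.00. On chromosome 8, over 644 genes, Brca1hom 1 had a median of 0.61 and Brca1het 11C of 0.29. The other libraries lay at −0.16 to −0.04. On chromosome 12 72 of 404 genes had no overlap with Brca1hom higher (17.8%, against 9.43%). Its library medians overlapped, at −0.27, 0.10 and 0.21 in Brca1hom and 0.04, −0.07 and −0.21 in Brca1het. Chromosomes 9, 18, X and 11 had like shares, of 16.6%, 15.8%, 15.3% and 14.9%.

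The genes called without Brca1hom 1 showed what allografts 2 and 12 share. Otop3, a proton channel gene, stood at 29.7 and 27.2 FPKM in Brca1hom 2 and 12, was listed at 0 in Brca1hom 1, and was at most 0.0936 in Brca1het. Padi3, which converts arginine to citrulline, stood at 9.77 and 12.3 in Brca1hom 2 and 12, at 0.0551 in Brca1hom 1 and at 0.149 to 0.218 in Brca1het. For both genes Brca1hom 1 lay with the Brca1het libraries, but leaving it out favours genes in which it departs from Brca1hom 2 and 12. Slco2a1, a prostaglandin transporter, stood at 14.9 in Brca1hom 1, between the Brca1het values of 4.74 to 8.09 and the 52.7 and 44.9 of Brca1hom 2 and 12. Otop3, Padi3 and Slco2a1 were named after their values were seen. In others of these called genes, such as Sox2, Cdh11, Zfp605 and Tmsb15l, the groups did not overlap with Brca1hom 1 included. Brca1hom 1 also held the highest Erbb2 and Esr1 values. Erbb2, the growth factor receptor HER2, stood at 15.0, 1.86 and 4.50 FPKM in Brca1hom and 2.33, 3.45 and 6.58 in Brca1het. Esr1, the oestrogen receptor, stood at 3.08, 0.751 and 0.964 FPKM in Brca1hom and 0.423, 0.478 and 1.39 in Brca1het. The groups overlapped in both. Pgr and Cyp19a1 were at or below 0.139 FPKM in all 6 libraries and were not tested.

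The culture pair of the same medium was set beside the allografts. With 1 library of each genotype in CRC culture, taken to vary like the allografts, the difference between the genotype effect in allografts and in culture was tested over 12243 genes with limma, and 6 (0.049%) were called, while 306 had an unadjusted p under 0.05. All 6 were below 0.3 FPKM in every allograft and differed between the 2 cultures, so the call describes the cultures. These genes passed the filter only through their culture values. The spread measured in the test came from allograft values near 0, so the call is no evidence of a genotype effect. Csn1s2a, a milk casein, stood at 22.4 FPKM in the Brca1hom and 1.52 in the Brca1het culture, and Cldn6, a tight junction gene of embryonic epithelium, at 0.386 and 15.4. Among genes described above, Ltbp2 and Fn1 were higher in the Brca1hom culture too, Fn1 at 172 FPKM in the Brca1hom and 77.2 in the Brca1het CRC culture, and Cdkn1a stood at 244 FPKM in the Brca1hom and 221 in the Brca1het CRC culture. Brca1 stood at 2.55 FPKM in the Brca1hom and 3.90 in the Brca1het CRC culture.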

How the data were processed

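Poly(A) RNA was sequenced from both ends with TruSeq libraries, per the labels' protocols. The authors deposited FPKM values in a table named for the normalisation program of the Cufflinks suite. FastQC, Trim Galore, TopHat, Cufflinks and build mm9 are named in the submitters' processing notes, without versions; the annotation is not given in the sources used here. Each library was grouped by its title. From the deposited FPKM, log2(FPKM + 1) was tested with limma 3.58.1 in R 4.3.3 (lmFit, eBayes with a trend, 4 residual degrees of freedom) for genes averaging 1 FPKM or more over the 6 libraries, adjusted by Benjamini-Hochberg over all 11928 genes. The fit was tested on simulated data. The 34 gene lists are described by counts and medians, without a set test. The comparison and the lists were chosen with earlier results of these data known.

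Named genes are Brca1, Trp53, Esr1, Pgr, Erbb2, Met and Cyp19a1, the 12 in each direction with the smallest p, no overlap and at least 5 FPKM in the higher group, up to 3 tested members of each list with the smallest p, the 2 most abundant markers of each cell type and Brca1 partners, some of which are not reported here; members of lists without overlap and other genes are named after their values were seen. Alternatives were a pseudocount of 0.1, no filter or a filter at 5 FPKM, rescaling, leaving out each library, 10B and 10C as 1 sample, all 10 allografts in 5 groups, no trend and, added after seeing the data, centring on transcript length in 20 bins (GENCODE vM21). Chromosomes, gene order and start sequences are from RefSeq (GRCm38.p6), so no gene coordinates of the mm9 files were used. Tables were made with Python 3.11.15 and pandas 2.3.3.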

Additional observations from a re-analysis of the deposited data

Results flagged for a closer look

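In 6 genes the difference between Brca1hom and Brca1het differed between CRC allografts and CRC cultures by a test of that difference itself (limma interaction over 8 libraries, on log2(FPKM + 1), allograft difference minus culture difference). Culture values are given as Brca1hom and then Brca1het, 1 library each, so the spread of the cultures is assumed and not measured. Mir686 had a log2 value of −6.31, adjusted p = 0.00152, and culture values of 78.9 and 0.00868 FPKM. Prl8a9, a gene of the prolactin family, had a log2 value of 3.67, adjusted p = 0.0232, and culture values of 1.34 and 28.1 FPKM. Stfa1, a cysteine protease inhibitor gene, had a log2 value of 3.61, adjusted p = 0.0232, and culture values of 0.802 and 19.7 FPKM. Cldn6 had a log2 value of 3.46, adjusted p = 0.0232, and culture values of 0.386 and 15.4 FPKM. Csn1s2a had a log2 value of −3.22, adjusted p = 0.0232, and culture values of 22.4 and 1.52 FPKM. Krt4, a keratin of stratified epithelium, had a log2 value of 2.88, adjusted p = 0.0390, and culture values of 0.422 and 9.002 FPKM. In the allografts all 6 genes were at most 0.209 FPKM. They passed the filter on the mean of the 8 libraries only through the cultures. The spread measured in the test came from allograft values near 0. The small p-values follow from that and do not show a genotype effect that differs between allografts and cultures. With a pseudocount of 0.1 and with a filter at 5 FPKM 0 genes were called.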

How the results depend on the processing

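No paired analysis was possible because the compared groups share no replicate numbers. The count of called genes was 0 under a pseudocount of 0.1, without a filter, with a filter at 5 FPKM, after rescaling by median ratios, with 10B and 10C as 1 sample, with all 10 allografts in 5 groups (smallest adjusted p 0.0592), without a trend and after centring on length, and it ran from 0 to 26 with 1 library left out. At an unadjusted p under 0.05 there were 648 to 1790 genes over all settings. Genes at least 2-fold apart without overlap numbered 508 with a pseudocount of 0.1 (217 higher and 291 lower) against 332, and those higher 87 with a filter at 5 FPKM. With 1 library left out the total ran from 357 to 673, those higher from 120 to 315 and those lower from 197 to 358. Fewer libraries make non-overlap easier to reach. The share higher went from 39.8% to 52.3% without Brca1hom 1. Interaction calls numbered 0 with a pseudocount of 0.1, 0 with a filter at 5 FPKM and 350 without a filter, and 1 to 16 with 1 library left out; for these the cause was not tested. The chromosome 19 median was −0.21 without a filter, where genes at 0 enter. Brca1 turned to −0.0151 without Brca1hom 1 and Trp53 to 0.13 without Brca1hom 2, neither called; in the other direction Brca1 went to 0.27 without Brca1hom 2 and Trp53 to −0.55 without Brca1hom 1. Rescaling moved the median of all genes by under 0.1. With 3 libraries a group and unknown depth, a p that misses the threshold does not show that a gene did not differ.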

Other observations

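Further runs of neighbouring genes stood out in single allografts. On distal chromosome 2, from Slc9a8 to Cebpb, 5 of 7 tested genes were at least 2-fold above the median of the 10 allografts in Brca1het 10B and 5 of 7 in Brca1het 10C, and 0 of the 7 in the other 4 libraries. On chromosome 5, 8 of 11 genes from Gm15772 to Cyp51, a run that holds Cdk6, were at least 2-fold above that median in Brca1hom 2 and 0 in the other 5 libraries. Xist, the RNA that silences an X chromosome in female cells, stood at 9.94, 3.63 and 3.72 FPKM in Brca1hom and 12.4, 12.2 and 28.1 in Brca1het, with no overlap between the groups. Airn, a long RNA of the imprinted Igf2r locus, stood at 1.81, 1.65 and 1.77 FPKM in Brca1hom and 5.82, 6.02 and 3.797 in Brca1het, and the imprinted growth factor gene Igf2 at 3.04, 0.488 and 9.55 FPKM in Brca1hom and 0.176, 0.298 and 0.0990 in Brca1het. These genes were named after their values were seen.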
